A study of Saccharomyces cerevisiae with 91 samples.

Results

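Long contact domains of wild-type budding yeast were taken as the intervals over 6000 bp between consecutive boundaries of the authors' joint wild-type boundary list, sorted by chromosome and position. There were 404 such domains among 3045 intervals, 13.3% of all intervals and 26.3% of their total length. They were set against the 1632 intervals of 2500 to 5000 bp. The domains were thus chosen by boundaries that the authors called from wild-type Micro-C contacts, so domain length and the wild-type levels in and around them are a description and were not tested.

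A contact domain is a stretch of chromatin whose nucleosomes are found together more often than with those beyond its boundaries. In yeast such domains hold a few genes, and their boundaries tend to fall at nucleosome-depleted regions (NDRs), the open stretches that mark promoters and some gene ends. In Micro-C, cells are fixed with formaldehyde, chromatin is cut to nucleosomes with micrococcal nuclease (MNase), neighbouring nucleosome ends are ligated, and paired reads record which nucleosomes were joined. A read pair that spans an NDR therefore joins chromatin on its left to chromatin on its right, and a strong boundary is an NDR that few pairs cross.

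The study recorded Micro-C libraries of laboratory yeast in rich medium under drugs, gene deletions, histone H4 mutations and temperature-sensitive alleles. Wild type was BY4741 at 30 °C, with 16 replicates in the table of NDR-spanning pairs. Against it stood BY4741 given 1.5 mM diamide for 30 min, which oxidises thiols, and BY4741 given 3 µg/mL thiolutin for 45 min, an inhibitor of transcription, with 2 replicates each. Further groups at 30 °C were med1d and rtt109d with 3 replicates each, and rnh201d, rpd3d, top1d, H4d4-14 and H4R23A with 2 each, all named for a deleted gene or a change in histone H4. The ssu72-2 group, a temperature-sensitive allele grown at 32 °C, had 3 replicates, so its contrast with wild type at 30 °C also holds a difference of 2 °C. A single column each stood for BY4741 at 32 °C, BY4741 after 90 min at 37 °C, the strain W303, H4-WT (histones H3 and H4 on a plasmid), H4K16Q, H4Q93E and, after 90 min at 37 °C, the temperature-sensitive alleles scc2-4, rsc8-21, sth1-2 and rgr1. The allele of rgr1 is named differently in the title and the strain label. H4d4-14 and H4R23A were set against BY4741, not against the single H4-WT column, so any strain difference is part of these contrasts. The MNase doses 0.25X and 1X had 4 size fractions each, and there was a library without crosslinking and a library without ligation. The labels give no strain background for the deletions and do not say whether replicates were separate cultures or clones, and a p-value therefore covers only how these samples vary, part of which may be technical variation.

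NDR-spanning pairs per wild-type replicate ran from 105690 to 1304896, and from 84223 to 951070 in the other groups with replicates. The library without ligation held 6551 pairs over 6719 NDRs, too few for a median level per NDR. Counts are whole pairs, so in shallow libraries a median over NDRs moves in coarse steps, as in med1d replicate 1 with 84223 pairs. Levels are given in CPM, the pairs crossing an NDR per 1000000 in the library, where the library total was adjusted by TMM. NDRs at the deleted gene were lower in rtt109d (log2 changes of -1.66 and -1.85) and in med1d (-1.40 to -1.44, adjusted p = 0.06 to 0.151 in edgeR's quasi-likelihood test). In the libraries labelled rpd3d the NDR beside RPD3 differed from wild type by -0.20 on the log2 scale (edgeR adjusted p = 0.91), and in those labelled top1d the NDRs beside TOP1 differed by -0.23 and -0.50 (edgeR adjusted p = 1.0). Both sets of libraries are therefore named below as labelled.

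Long domains lay on every chromosome. Their lengths ran from 6009 to 15589 bp with a median of 7315 bp, against 3540 bp for the shorter comparison class and 3514 bp for all intervals. Their share of a chromosome's intervals was lowest on chromosome VIII (13 of 148, 8.78%) and highest on chromosome XII (42 of 254, 16.5%), where they covered 33.5% of the interval length. Of the 404, 109 touched another long domain, and 62 boundaries separated a long domain from a second one. Long domains were as frequent near chromosome ends as the comparison class: 7.92% against 7.90% reached within 30 kb of the first base or of the end of the last gene. Near centromeres the shares were 6.93% and 5.64%. The domains closest to the length limit were chrVII:930976-936985 with CRM1, the nuclear export receptor (6009 bp), and chrX:570748-576763 (6015 bp). Just below it lay chrXIII:768436-774433 (5997 bp) and chrII:74859-80845 (5986 bp).

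The longest domain, chrXI:533889-549478, spanned 15589 bp and was built around DYN1, the dynein heavy chain, a gene of 12279 bp. It also held YSR3 and RHO4, and its 9 inside NDRs had wild-type levels of 70.4 to 149.6 CPM, against 58.4 CPM at its edge NDR. Others were made of many ordinary genes. The 15047 bp domain chrXV:186885-201932 held 8 genes, among them NUF2 of the kinetochore and HST1, an NAD-dependent deacetylase. It had only 3 inside NDRs, at 90.9 to 135.1 CPM, and a stretch of 8066 bp between neighbouring NDRs. The domain chrII:728309-741652 held 12 genes, from POP4 to MRPL37, of which the longest touched measured 2067 bp. The domain chrIX:46049-60741 held 9 genes including the deubiquitinase UBP7 and GUT2, the mitochondrial glycerol-3-phosphate dehydrogenase. Its 5 inside NDRs stood at 147.5 to 238.4 CPM and its edge NDR at 91.2 CPM.

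The domain chrX:160295-173439 held URA2, which encodes the first enzymes of pyrimidine synthesis, in a gene of 6645 bp. Its 6 inside NDRs had a median of 138.5 CPM, and its edge NDRs stood at 30.7 and 77.2 CPM. The domain chrXIII:637181-651064 held SGS1, the RecQ helicase, and GCV2 of the glycine decarboxylase. Its edge NDRs, at 64.1 and 26.9 CPM, lay below the inside median of 102.3 CPM. Of the 4 domains on chromosome XII among the 10 longest, chrXII:673858-687921 held 7 genes including SEC22, a vesicle SNARE, and YCS4 of condensin, and chrXII:263089-276504 held 9 genes starting with RPL22A. The remaining ones, chrXII:458549-472449 and chrXII:485808-498669, lay in and beside the ribosomal DNA (rDNA).

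Long domains held more genes each, at a slightly lower density, and more of the very long genes. A mean of 3.41 protein-coding genes lay wholly inside a long domain, against 1.73 in the comparison class, which is 0.439 and 0.482 genes per kb. The typical gene wholly inside was not longer: the median length was 1158 bp in long and 1246 bp in comparison domains, while the 90th percentile was 3608 and 2586 bp. The longest gene touching a domain had a median length of 3293 bp in long domains and 1893 bp in the comparison class. A gene of at least 4000 bp touched 142 long domains (35.2%) and 103 comparison domains (6.31%). Of the 240 genes that long, 113 (47.1%) lay wholly inside long domains, against 1378 of all 6002 protein-coding genes (23.0%). A gene over 5000 bp cannot lie wholly inside a comparison domain, so part of this contrast follows from length alone. Among the genes for large proteins chosen for this report, 23 of 29 located in the annotation lay wholly inside a long domain. They included the kinase TOR1 and its paralogue TOR2, the checkpoint kinases MEC1 and TEL1, the fatty acid synthase genes FAS1 and FAS2, the Ras regulators IRA1 and IRA2, the splicing factor PRP8 and RPO21, the largest subunit of RNA polymerase II.

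The other gene lists are small, apart from the ribosomal proteins, and are given as counts beside the 23.0% of all genes. Of 137 ribosomal protein genes 32 (23.4%) lay wholly inside, and of 18 ribosome biogenesis genes 4 (22.2%), namely NOP1, NOP7, RRP5 and UTP22. The counts were 3 of 18 for glycolysis (ADH1, GLK1, PGI1), 3 of 16 for mating and meiosis (HOP1, IME1, SPO13), 2 of 13 for cell wall and flocculation (CWP1, FLO9) and 1 of 16 for targets of the heat shock factor Hsf1 (SSA4), which are lower shares on few genes and were not tested. Transfer RNA genes were found at 1.21 per 100 kb in long domains and 1.49 per 100 kb in the comparison class. Among domains with at least 2 whole genes, all genes ran in the same direction in 13.1% of 359 long domains and 28.1% of 960 comparison domains.

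Long domains were not stretches without NDRs. They held 1404 inside NDRs, defined as lying at least 200 bp from both boundaries, or 3.48 per domain and 0.447 per kb. The comparison class held 1975, or 1.21 per domain and 0.338 per kb. Only 10 long domains (2.48%) had no inside NDR, against 455 comparison domains (27.9%). With 500 bp removed at each end, the densities were 0.478 and 0.388 per kb. These densities leave out NDRs at boundaries, and shorter domains have more boundaries per kb. They are thus not densities of all NDRs, which were not compared. At the edges, an NDR lay within 200 bp of 71.5% of the 746 boundaries of long domains and of 76.9% of the 2393 boundaries of comparison domains, which made 536 and 1856 edge NDRs. Of the 536, 293 also bounded a comparison domain.

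Inside and edge NDRs differed in their place relative to genes. Of the inside NDRs of long domains, 640 (45.6%) lay within a gene, 359 (25.6%) between tandem genes, 251 (17.9%) between divergent genes and 154 (11.0%) between convergent genes. At the edges only 28 of 536 (5.22%) lay within a gene, while 269 (50.2%) lay between tandem and 211 (39.4%) between divergent genes. A gene start lay beside 38.2% of inside and 80.8% of edge NDRs, where a start codon up to 500 bp downstream or 50 bp upstream was counted. A transfer RNA gene lay within 500 bp of 1.43% of inside NDRs and 5.04% of edge NDRs. In the comparison class 40.5% of inside NDRs lay within a gene and 36.9% beside a gene start, close to the values in long domains.

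In wild type, the inside NDRs of long domains were crossed by more pairs than their edges. The median inside NDR stood at 104.2 ± 4.74 CPM (SD over 16 replicates, range 90.3 to 108.3), and the median edge NDR at 79.8 ± 3.42 CPM (range 68.8 to 82.1). The values did not overlap. In the comparison class the medians were 84.4 ± 2.95 CPM inside and 77.1 ± 3.66 CPM at the edges, and over all NDRs the median was 84.6 ± 2.98 CPM. On the log2 scale the median inside NDR exceeded the median edge NDR by 0.38 ± 0.03 in long domains, with a range of 0.33 to 0.44, and by 0.13 ± 0.03 in comparison domains. Of 361 long domains with both kinds of NDR, 298 had the higher level inside on average, 111 in every wild-type replicate, and 10 had the lower level inside in every one.

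The median level of inside NDRs was higher with distance from the nearest boundary, and within 1000 bp of a boundary the medians of long and comparison domains were close. At 200 to 500 bp the medians were 70.2 ± 3.94 CPM in long domains (97 NDRs) and 70.2 ± 2.38 CPM in comparison domains (336 NDRs). At 500 to 1000 bp they were 76.8 ± 3.20 and 78.1 ± 1.21 CPM. At 1000 to 1500 bp the long domains stood at 93.6 ± 1.74 CPM and the comparison domains at 85.2 ± 3.74 CPM, and at 1500 to 2500 bp at 104.9 ± 4.07 and 97.3 ± 3.68 CPM. Comparison domains end there by their length, and in long domains the level was 116.1 ± 8.39 CPM from 2500 to 4000 bp and 121.6 ± 11.5 CPM farther in. The surplus of inside over edge level grew with domain length, from 0.13 ± 0.03 at 2500 to 5000 bp to 0.21 ± 0.06 up to 6000 bp. It was 0.34 ± 0.04 for the next class up to 8000 bp and 0.45 ± 0.06 up to 10000 bp. These classes are too coarse to tell whether there is a break at 6000 bp. In the 35 domains over 10000 bp the surplus was 0.44 ± 0.15.

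**Figure D1:**
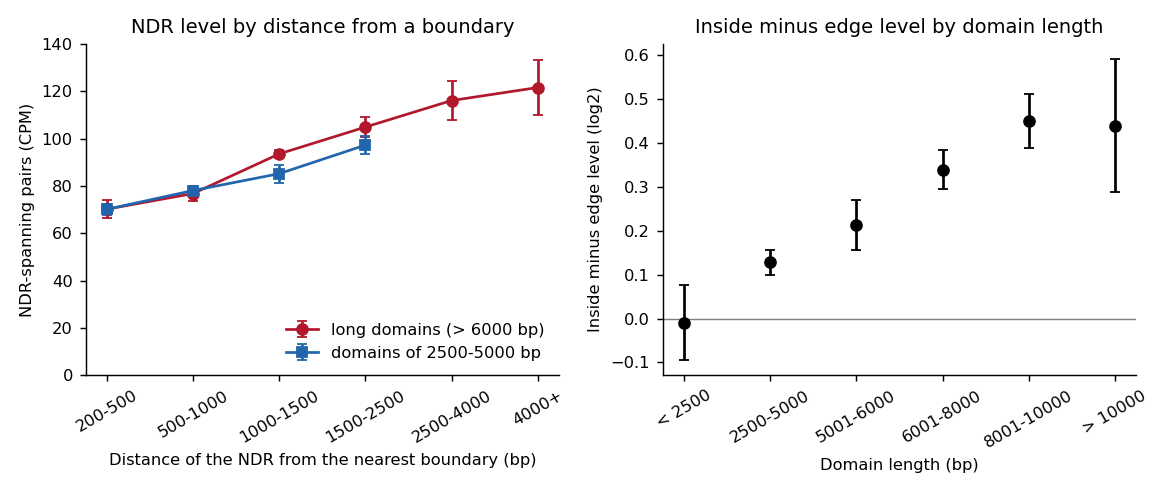
Left: median level of NDR-spanning pairs (CPM) in wild type by distance of the NDR from the nearest boundary (bp), for long domains (circles) and domains of 2500 to 5000 bp (squares). Right: median inside minus median edge level (log2) by domain length (bp). Points are means and bars are SDs over 16 wild-type replicates. The level at 200 to 500 bp is the same in both classes, and the inside surplus climbs from 0.13 at 2500 to 5000 bp to 0.45 between 8000 and 10000 bp.

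The contrast between domain classes was also seen within each place class. Inside NDRs within genes stood at 120.3 ± 9.06 CPM in long domains and 95.9 ± 4.65 CPM in comparison domains. By length of the gene the order was not the same throughout. In genes under 2000 bp the values were 91.3 ± 7.62 and 78.1 ± 1.77 CPM, but in genes of at least 4000 bp the 350 NDRs inside long domains stood at 128.6 ± 12.9 CPM, below the 156.5 ± 10.4 CPM of the 114 inside comparison domains. Between divergent genes the values were 86.5 ± 2.60 and 71.1 ± 2.45 CPM, between tandem genes 89.6 ± 4.97 and 74.2 ± 2.37 CPM, and between convergent genes 100.8 ± 5.49 and 86.6 ± 2.95 CPM. At gene starts the inside NDRs stood at 87.2 ± 3.95 and 72.1 ± 1.84 CPM, and the edge NDRs at 81.6 ± 4.24 and 77.7 ± 3.96 CPM. Inside NDRs at gene starts were thus above edge NDRs at gene starts in long domains and below them in the comparison class.

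The 3 highest inside NDRs all lay in the rDNA repeats on chromosome XII, which encode the ribosomal RNAs. At chrXII:463647 the wild-type level ran from 22420 to 82900 CPM with a median of 45080, and at 460158 from 21230 to 73920 with a median of 47310. The third, at 454510 beside TAR1, ran from 20560 to 75470 with a median of 39920. The genome carries many rDNA copies and the reference only a few, so pairs of all copies pile up there, and the sources used here do not say how such pairs were placed. The 3 lowest inside NDRs lay together at chrXIII:652491, 653072 and 653623, between the ribosomal protein gene RPL36A and ICY1, with means of 22.1 ± 7.39, 23.1 ± 9.00 and 26.8 ± 8.05 CPM. They belong to the domain chrXIII:652053-659345, whose edge NDR at 652167 was the lowest of all edges, at 22.0 ± 6.74 CPM. The other low edges lay at ribosomal protein genes, chrII:606032 at RPL21A with 25.4 ± 11.5 CPM and chrXVI:731971 between RPL11A and PRE2, a proteasome subunit, with 26.5 ± 11.6 CPM.

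The separate boundary lists, 4 in number, placed further boundaries inside the long domains. The first list had 931 boundaries at least 200 bp inside long domains, in 370 of the 404, and the others 915 to 965. The mean over the lists was 0.315 per kb, against 0.275 per kb in comparison domains. This order depended on which boundaries were kept: with each list cut to as many boundaries as the joint list, it was 0.123 against 0.156 per kb for the lowest strength scores and 0.240 against 0.175 per kb for the highest. Of the 931, which by the choice of domains are absent from the joint list, 92 (9.88%) had a boundary within 200 bp in each of the other lists. Of the edges of long domains, which are in the joint list, 34.2% were found in all 4. For the comparison class these shares were 9.28% and 35.1%. In the joint list the median strength score of the edges was 4.14 for long domains and 4.24 for the comparison class. The score is the authors' own value, and the sources used here explain neither its scale nor whether a higher score means a stronger boundary.

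Across groups the inside NDRs of long domains stayed above the edges in every library except that without ligation. Long domains had the larger surplus in 48 of 49 libraries outside the controls and MNase doses, the exception being thiolutin replicate 2. H4d4-14, which lacks a stretch of the histone H4 tail, had surpluses of 0.28 and 0.29, both under the wild-type range of 0.33 to 0.44. The mean difference from wild type was -0.10 with medians over NDRs and -0.0521 with means over NDRs. The single H4-WT library gave a surplus of 0.41. In med1d, which lacks a Mediator subunit, the surpluses were 0.21, 0.28 and 0.40, of which the last lay within the wild-type range. Thiolutin gave 0.36 and 0.14. Diamide gave 0.38 and 0.40, rtt109d 0.33 to 0.41, ssu72-2 0.30 to 0.44, H4R23A 0.32 and 0.36, and rnh201d 0.32 and 0.37. The libraries labelled rpd3d gave 0.29 and 0.39 and those labelled top1d 0.35 and 0.38, with means inside the wild-type range.

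The column names carry a middle number, here called the run number, and the labels do not say what it marks. Compared with the wild-type replicate of the same run number, H4d4-14 was lower by 0.07 and 0.11, med1d lower by 0.22, 0.01 and 0.06, and thiolutin lower by 0.06 and 0.23. The temperature-sensitive groups had 1 column each and no replicate check. The chromatin remodeller RSC mutants rsc8-21 and sth1-2 stood at 0.30 and 0.28 and the Mediator mutant rgr1 at 0.29, against 0.36 for wild type at 37 °C, while scc2-4, a cohesin loader mutant, stood at 0.42. The library without crosslinking gave 0.16 both in long and in comparison domains. The fractions of 0.25X MNase gave 0.21 to 0.40 and those of 1X gave 0.23 to 0.49. The 0.49 came from the 1X fraction labelled Small, of 59033 pairs, which also gave 0.49 in comparison domains. In libraries this shallow the surplus moves in steps of whole counts and is only a rough value.

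**Figure D2:**
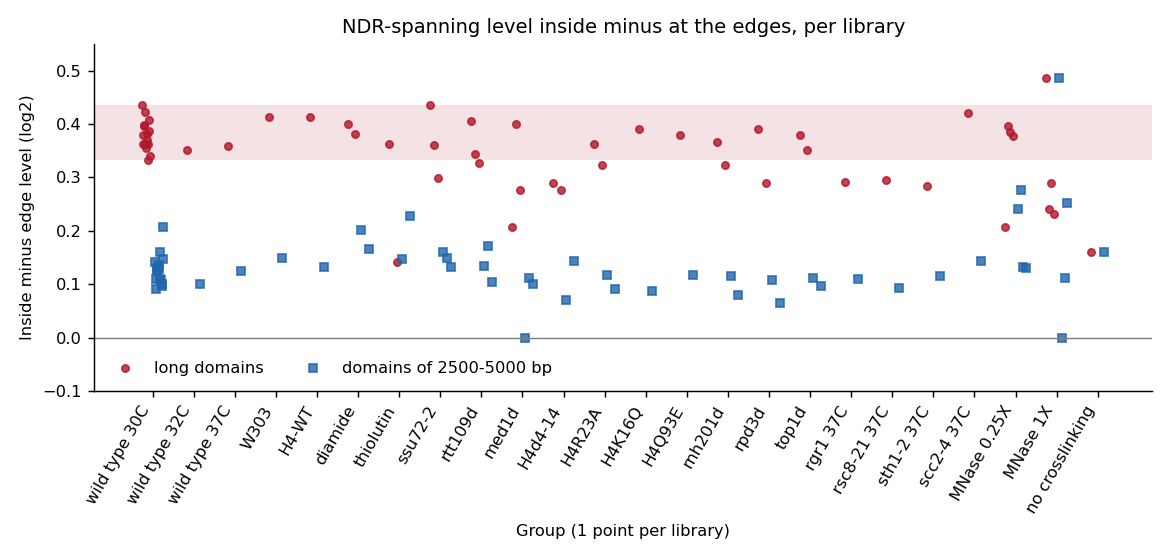
Median inside minus median edge level of NDR-spanning pairs (log2) in each library, by group, for long domains (circles) and domains of 2500 to 5000 bp (squares); the band is the range of the 16 wild-type replicates for long domains. Both H4d4-14 replicates, at 0.28 and 0.29, sit under the band of 0.33 to 0.44. Their difference from wild type is smaller, -0.0521, with means in place of medians. The library without crosslinking, of 210503 pairs, has 0.16 for both classes, and in shallow libraries these values move in coarse steps.

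Single NDRs were then compared with wild type in edgeR's quasi-likelihood test over all 6719 NDRs, with Benjamini-Hochberg adjustment and calls at 0.05. All 6719 passed the filter on low counts, so all 1404 inside and 536 edge NDRs of long domains were tested. The comparisons share the wild-type replicates. A pair may cross several neighbouring NDRs, so their counts can share pairs. Calls at neighbouring NDRs are therefore not independent of each other.

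Diamide raised crossing at ribosomal protein genes inside long domains. Over all NDRs 4.76% were called (2.99% higher, 1.77% lower). Of the inside NDRs of long domains 27 rose and 23 fell, and of the edge NDRs 12 rose and 7 fell, which made 3.56% and 3.54% called. Of the inside NDRs of comparison domains 6.03% were called, a difference that was not tested. In or next to ribosomal protein genes, 84 NDRs of long domains had 29 calls, all of them higher, and a median log2 change of 0.57 beside -0.02 over all NDRs of long domains. At ribosomal protein genes elsewhere 79 of 185 rose, with a median of 0.63. In wild type these 84 NDRs had a median of 43.0 CPM, below the 85.2 CPM over all NDRs. Against the wild-type replicate of the same run number, the median shift at the 84 NDRs was 0.68 and 0.57.

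The strongest inside call was chrXVI:702007, between TEF1, which encodes translation elongation factor 1-alpha, and GRS2. Wild type ran from 12.9 to 64.3 CPM with a median of 46.0, and diamide gave 130.8 and 117.6 CPM. Both treated values lay above all wild-type replicates, a log2 change of 1.42 ± 0.20 (SE, adjusted p = 1.4e-06 in edgeR). Within RPS0B, which encodes a small ribosomal subunit protein, the NDR at chrXII:242978 went from a wild-type median of 35.4 CPM (0 to 53.3) to 102.8 and 82.9 CPM, a log2 change of 1.35 ± 0.22 (edgeR adjusted p = 2.48e-05). At the edges, chrV:53406 at RPL12A went from a wild-type median of 38.1 CPM (8.60 to 58.2) to 79.4 and 85.6 CPM (log2 change 1.01 ± 0.21, edgeR adjusted p = 0.000947). The edge at RPL21A, chrII:606032, went from a median of 26.1 CPM (0 to 41.5) to 53.7 and 66.8 CPM (log2 change 1.21 ± 0.27, edgeR adjusted p = 0.00233). None of these groups overlapped.

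The domain chrIII:50555-56775 around GLK1, a glucokinase gene, changed the other way. Its only inside NDR, at chrIII:52499 between GLK1 and GID7 of the GID ubiquitin ligase, had 105.2 to 296.3 CPM in wild type with a median of 172.8, and 53.7 and 62.8 CPM in diamide. The log2 change was -1.59 ± 0.26 (edgeR adjusted p = 1.95e-05). Its edge NDR at chrIII:50486, beside PDI1, which encodes protein disulfide isomerase, went from a median of 99.5 CPM (68.0 to 147.8) to 44.4 and 36.1 CPM (log2 change -1.32 ± 0.23, edgeR adjusted p = 0.000125). Falling calls also came in clusters, named after their values were seen, in which neighbouring NDRs may share pairs. In chrIX:46049-60741, with UBP7 and GUT2, 3 of 5 inside NDRs fell by 0.64 to 1.04 on the log2 scale. In chrXIV:270080-276215, with YNL194C and YNL193W, 4 of 5 fell, and in chrXV:979621-989641, with the proline transporter gene PUT4, 3 of 7. In chrXI:364497-374730, with UGP1, which makes UDP-glucose, 3 of 7 fell. At chrXI:371640 both diamide values lay within the wild-type range, and at chrXI:370623 1 of 2 did. At chrXIV:275848 both lay within it through wild-type replicate 17. The domain chrXII:1028491-1035925 went up, with 3 of 8 inside NDRs higher by 0.50 to 0.99, and holds RPL6B and HMG2, a gene of sterol synthesis. At chrXII:1033918 in HMG2, 1 of 2 diamide values lay within the wild-type range. With the run number as a block the 69 called members became 33 (1.7%, beside 2.07% of all NDRs). They were also fewer when either diamide replicate was left out, which leaves 1 replicate. The edge calls at GLK1, RPL12A and RPL21A were lost without replicate 2. With the run number as a block the call at the RPL21A edge was lost as well (edgeR adjusted p = 0.12).

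Thiolutin also raised crossing at ribosomal protein genes, and it lowered crossing at a few NDRs within genes for large proteins. Over all NDRs 3.59% were called (2.43% higher, 1.16% lower). Inside long domains 19 NDRs rose and 19 fell, and at the edges 12 rose and 8 fell (2.71% and 3.73%). The 84 NDRs in or next to ribosomal protein genes had 13 calls, all of them higher, with a median log2 change of 0.50 beside -0.03 over all members. Elsewhere 55 of 185 such NDRs rose, with a median of 0.62. Within genes for large proteins, the 98 inside NDRs had 6 calls, all of them lower, and a median of -0.33. With neighbouring NDRs included, 140 NDRs of long domains had 1 higher and 8 lower calls and a median of -0.24. At the 98 NDRs the median was also below 0 in H4d4-14 (-0.27), ssu72-2 (-0.26), med1d (-0.17), rpd3d (-0.09), H4R23A (-0.09) and diamide (-0.08). It was -0.05 in rtt109d, -0.003 in top1d and 0.07 in rnh201d. These comparisons share the wild-type replicates.

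At chrX:701947, between MGM101, needed for mitochondrial DNA maintenance, and RPS4A, wild type ran from 32.2 to 75.0 CPM with a median of 56.5, and thiolutin gave 109.1 and 151.9 CPM. The log2 change was 1.11 ± 0.19 (edgeR adjusted p = 9.11e-05). The domain chrVIII:28006-36215 rose inside and at its edge. At chrVIII:34275, between SBP1 and RPL8A, the wild-type median of 46.0 CPM (24.1 to 71.8) became 109.1 and 102.6 CPM, and at the edge chrVIII:36209 beside RPL8A 45.2 CPM (20.9 to 68.2) became 84.2 and 131.4 CPM. The log2 changes were 1.16 ± 0.20 and 1.20 ± 0.23 (edgeR adjusted p = 0.00013 and 0.000649). The domain chrV:46115-53410 did likewise at POL5, a factor of rDNA transcription, with a log2 change of 1.20 ± 0.21 at chrV:51740, and at the RPL12A edge with 1.16 ± 0.22 (edgeR adjusted p = 0.000144 and 0.000581). The edge chrX:337352, beside the retromer gene PEP8, fell from a median of 77.2 CPM (56.9 to 97.2) to 32.7 and 24.6 CPM, a log2 change of -1.37 ± 0.26 (edgeR adjusted p = 0.000492). No treated value at these 6 NDRs lay within the wild-type range. With the run number as a block, the calls at chrVIII:34275, chrVIII:36209, chrV:51740 and chrX:337352 were lost (edgeR adjusted p = 0.142, 0.185, 0.0958 and 0.0734).

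Several NDRs fell together in the domain chrXV:170132-181548 of IRA2, where 3 of 4 inside NDRs fell by 1.10 to 1.36 on the log2 scale, named after their values were seen. IRA2 is one of the genes for large proteins, so calls within it are also among the lower calls counted there. At chrXV:173294 within IRA2, thiolutin gave 62.3 and 49.3 CPM against a wild-type median of 148.6 CPM. The lowest wild-type value, 51.6 CPM, was that of replicate 17, which was also the lowest at the other 2 NDRs and has the run number of thiolutin replicate 2. The other wild-type replicates began at 91.0 CPM, above both treated values. At the other called NDRs of this domain, chrXV:170623 and 175116, both treated values lay within the wild-type range through replicate 17. Members called numbered 77 without wild-type replicate 17 (3.97%, beside 4.49% of all NDRs). With the run number as a block they numbered 4 (0.206%, beside 0.714% of all NDRs). Their number also changed when either thiolutin replicate was left out, which leaves 1 replicate. Against the wild-type replicates of the same run numbers, the median shift at the 84 ribosomal protein NDRs was 0.48 and 0.25, and at the 98 NDRs in large-protein genes -0.19 and -0.14. The call at the RPL8A edge was lost without thiolutin replicate 2. The part of the run number in these results was not tested.

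**Figure D3:**
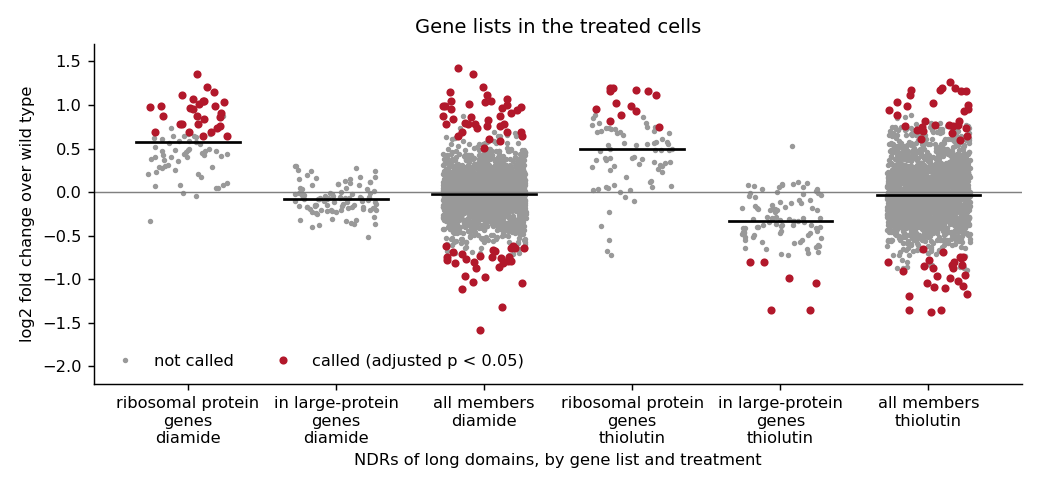
Log2 fold change over wild type of NDRs of long domains in diamide and thiolutin, for NDRs in or next to ribosomal protein genes (84), within large-protein genes (98) and all members (1940). Each point is 1 NDR, bars are medians, and filled red points are NDRs called in edgeR. The ribosomal protein medians are 0.57 and 0.50, and the large-protein medians -0.08 and -0.33.

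In ssu72-2, a mutant of an RNA polymerase II phosphatase that also acts in 3′ end processing, the higher calls fell largely on chromosome I. Over all NDRs 4.29% were called (3.27% higher, 1.01% lower). In long domains 39 inside NDRs rose and 26 fell, and at the edges 13 rose and 6 fell (4.63% and 3.54%). Of the 52 that rose, 28 lay on chromosome I, where 28 of the 29 NDRs of long domains were called higher, with log2 changes of 0.66 to 1.57 and a median of 1.10. The rest of that chromosome moved alike: 93 of its 100 NDRs rose, with a median log2 change of 1.10. In no other comparison or chromosome did the median over NDRs leave the range of -0.13 to 0.15. The replicates had 3.21%, 3.15% and 3.17% of their NDR-spanning pairs on chromosome I, against 1.39% to 1.73% in the 16 wild-type replicates. DNA copy number was not measured here, and its part in these calls was not tested. The calls at CDC19 and SSA1 below lie on that chromosome.

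**Figure D4:**
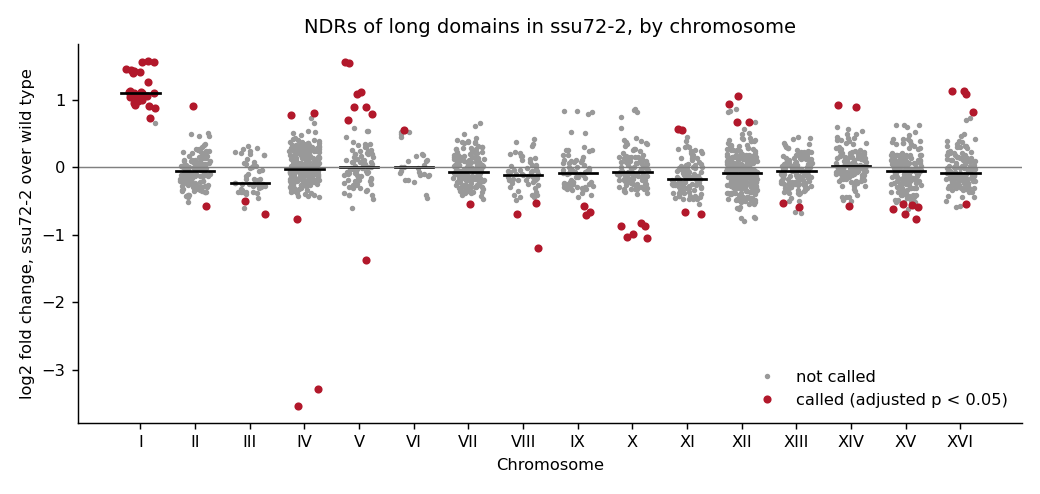
Log2 fold change of NDRs of long domains in ssu72-2 over wild type, by chromosome. Each point is 1 NDR, filled red points are NDRs called in edgeR, and bars are medians. All NDRs of chromosome I lie above 0, with a median of 1.10, and the pair of points near -3.5 and -3.3 on chromosome IV lies between HXT7 and HXT6.

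Elsewhere in ssu72-2, 56 NDRs of long domains were called, out of 84 called among all 1940 members. Over all NDRs 288 of 6719 were called, 93 of them on chromosome I. Whether long domains hold more than their share of the calls outside chromosome I was not tested. At the glucose transporter genes HXT7 and HXT6 the domain chrIV:1150695-1157392 had far fewer crossing pairs at its right end. The inside NDR chrIV:1156559 had 22.8 to 86.3 CPM in wild type with a median of 63.2, and 5.94, 4.36 and 6.05 CPM in ssu72-2. The edge chrIV:1157383 had a wild-type median of 54.8 CPM and the same mutant values of 5.94, 4.36 and 6.05 CPM. The 2 calls may thus rest on the same pairs. The log2 changes were -3.52 ± 0.31 and -3.28 ± 0.35 (edgeR adjusted p = 3.31e-13 and 8.72e-11). HXT6 and HXT7 are near-identical copies, so how reads were split between them is uncertain. Within SAK1, a kinase that activates Snf1, the neighbouring NDRs chrV:419673 and 419943 rose. The first had a wild-type median of 126.6 CPM (100.8 to 204.7) and 331.3, 459.9 and 347.6 CPM in the mutant, and the log2 changes were 1.56 ± 0.13 and 1.54 ± 0.13 (edgeR adjusted p = 1.52e-13 and 2.22e-13).

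The edge NDR at CDC19, the pyruvate kinase gene, chrI:73377, had a wild-type median of 71.8 CPM (36.1 to 113.7) and 226.8, 211.4 and 178.4 CPM in ssu72-2. Its log2 change of 1.56 ± 0.15 (edgeR adjusted p = 2.48e-12) stood above the chromosome's median of 1.10. At chrI:139365, beside the Hsp70 gene SSA1, the change was 1.39 ± 0.15 (edgeR adjusted p = 9.12e-11). The URA2 domain chrX:160295-173439 fell in 5 of 6 inside NDRs, by 0.83 to 1.05 on the log2 scale, and at its right edge. At chrX:168931 within URA2, wild type ran from 113.7 to 227.9 CPM, and ssu72-2 gave 70.1, 102.4 and 66.5 CPM, all lower. This domain was named after its values were seen, as were those that follow. In chrXVI:937436-946330, with the arsenic resistance genes ARR1, ARR2 and ARR3, 3 of 5 inside NDRs rose by 1.09 to 1.13 on the log2 scale. In chrXV:1046088-1054154, with the alcohol acetyltransferase gene ATF1, 4 of 5 fell by 0.55 to 0.76. Within genes for large proteins, the 98 inside NDRs had 6 calls, all of them lower, and a median of -0.26. URA2 is one of these genes, so the calls within URA2 are counted here again. Neighbouring NDRs may share pairs, so the 6 are not separate results for as many genes. Without ssu72-2 replicate 1 the 84 called members became 41.

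In rtt109d, which lacks the acetyltransferase of histone H3 lysine 56, the rise in long domains lay mostly in the rDNA. Over all NDRs 0.804% were called (0.551% higher, 0.253% lower). Inside long domains 19 rose and 2 fell, and at the edges 5 rose and 1 fell (1.50% and 1.12%). Between 5 kb before and 5 kb after the annotated ribosomal RNA genes (chrXII:451786-489469) lay 27 NDRs, of which 23 were inside and 2 at edges of long domains. Without these, 2 inside NDRs and 3 edge NDRs rose, or 5 of the remaining members, beside 17 of all remaining NDRs. Whether these shares differ was not tested. At chrXII:457821 wild type ran from 17560 to 59170 CPM with a median of 37470, and rtt109d gave 79410, 170100 and 213900 CPM. The values did not overlap, with a log2 change of 2.04 ± 0.31 (edgeR adjusted p = 1.96e-05). At 460158 and 466959 the log2 changes were 2.01 ± 0.32 and 1.89 ± 0.31 (edgeR adjusted p = 5.06e-05 and 7.74e-05). With a replicate block the calls at 457821, 460158 and 466959 were lost (edgeR adjusted p = 0.0501, 0.0514 and 0.0628). The call at 460158 was also lost without rtt109d replicate 3 (edgeR adjusted p = 0.0554).

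The 25 rDNA NDRs of long domains took 40.3%, 56.0% and 61.3% of all NDR-spanning pairs in rtt109d, against 14.8% to 33.7% in wild type. The share also ran high in size fractions of the MNase doses, from 23.65% to 55.7% at 0.25X and from 28.4% to 41.8% at 1X. Whether the rtt109d share is a change in copies or in contacts cannot be told apart in these counts. Among the edges, chrXII:472635 in the rDNA and chrXII:498739 at RPS31, which encodes a ubiquitin-ribosomal protein fusion, had log2 changes of 1.44 ± 0.34 and 1.06 ± 0.21 (edgeR adjusted p = 0.016 and 0.00124). At chrVII:703038, between VOA1 and the cyclin gene CLB1, it was 1.04 ± 0.22 (edgeR adjusted p = 0.00318). At each of these 3 edges 1 of 3 mutant values lay within the wild-type range. With a replicate block the calls at chrXII:472635 and chrVII:703038 were lost (edgeR adjusted p = 0.0702 and 0.0697). In that fit 8 members were called (0.412%, beside 0.298% of all NDRs). Without rtt109d replicate 3 the 27 called members became 2, and without replicate 2 they became 12; with the run number as a block they were 57 (2.94%, beside 1.83% of all NDRs).

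**Figure D5:**
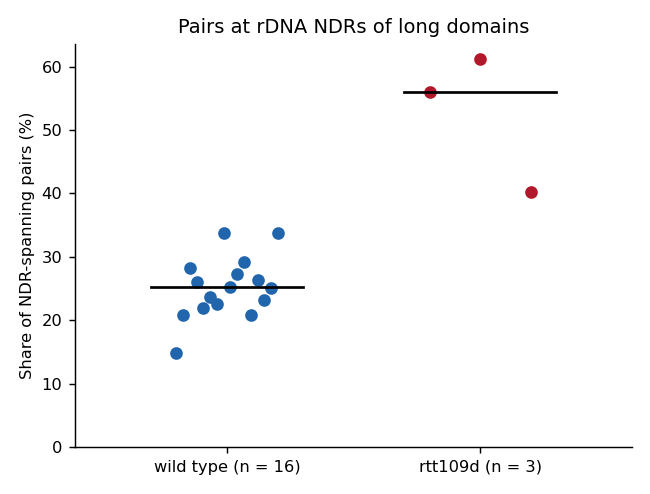
Share of all NDR-spanning pairs (%) that lay at the 25 rDNA NDRs of long domains in 16 wild-type and 3 rtt109d replicates. Each point is 1 replicate and bars are medians. The rtt109d values of 40.3% to 61.3% lie above all wild-type values. Size fractions of the MNase doses, not shown, reached 55.7% at 0.25X and 41.8% at 1X.

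The deleted gene of rnh201d, RNH201 of ribonuclease H2, itself lay in the long domain chrXIV:485449-495282. Over all NDRs 0.0446% were called, and the 2 of them in long domains were the NDRs on either side of RNH201. At chrXIV:490212 wild type ran from 86.6 to 136.5 CPM and rnh201d gave 32.3 and 33.3 CPM, a log2 change of -1.78 ± 0.23 (edgeR adjusted p = 1.7e-06). At chrXIV:491347, beside LAT1, it was -1.60 ± 0.25 (edgeR adjusted p = 8.6e-05). Both calls were lost without rnh201d replicate 1. In H4d4-14 0.0298% of NDRs were called, 2 in all, and both bounded or lay in the domain chrXIII:192203-199453. The inside NDR chrXIII:194810, between CAT2, the carnitine acetyltransferase gene, and VPS71, had a wild-type median of 190.3 CPM (114.5 to 318.1) and mutant values of 384.5 and 618.1 CPM. The log2 change was 1.39 ± 0.26 (edgeR adjusted p = 0.00441). At the edge chrXIII:192034, beside RRN11, it was 1.40 ± 0.25 (edgeR adjusted p = 0.00322). Both calls were lost without either H4d4-14 replicate. With the run number as a block, 176 members (9.07%) were called in H4d4-14 and 170 (8.76%) in med1d, beside 7.41% and 6.91% of all NDRs in the same fit.

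In the other comparisons edgeR called no NDR of a long domain in the fit without blocks and with all replicates. Other edgeR settings did call members. Besides the 170 in med1d above, there were 2 in med1d without wild-type replicate 17 (0.103%, beside 0.238% of all NDRs). With a replicate block 3 were called in H4R23A (0.155%, beside 0.0744% of all NDRs). In med1d 0.104% of all NDRs were called and 0 of 1940 members, with 215 members (11.1%) at an unadjusted p under 0.05, beside 10.0% of all NDRs, and 1 called by DESeq2. In H4R23A, where 0.0298% were called over all NDRs, 109 members (5.62%) had an unadjusted p under 0.05, beside 6.74% of all NDRs, and DESeq2 called 0. The libraries labelled rpd3d and top1d had 0 calls over all NDRs and 97 and 30 members (5.0% and 1.55%) at an unadjusted p under 0.05, beside 4.84% and 2.11% of all NDRs, with 0 called by DESeq2. Over the inside NDRs the median log2 change was -0.11 in H4d4-14 and -0.06 in med1d, beside -0.04 and -0.02 over all NDRs.

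The authors' gene compaction score, given on a log2 scale with 1 pooled column per group, was read for 1049 genes lying wholly inside long domains. In wild type at 30 °C its median was 0.05 for these genes, 0.03 for 2222 genes inside comparison domains and 0.03 for all 4578 scored genes. Genes of long domains shifted with the rest in each group. The median difference from wild type at the same temperature was -0.32 in med1d and -0.30 in H4d4-14, beside -0.29 in both over all scored genes. In diamide it was 0.12 against 0.15, and in rtt109d -0.09 against -0.12. At 37 °C it was 0.21 in sth1-2 and -0.14 in rgr1, beside 0.21 and -0.15. With pooled columns these differences have no replicate error and no test.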

How the data were processed

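Per the labels' protocols, chromatin was fixed, cut with MNase, ligated, gel-purified and bound to streptavidin before paired-end sequencing. CASAVA 1.8.2 and Bowtie2 were used with the build sacCer3, per the submitters' processing notes. The authors deposited whole-number counts of NDR-spanning pairs for 6719 NDRs and counts of pairs by distance, neither normalised per the file headers. They also deposited boundary lists with a strength score and gene compaction values on a log2 scale with 1 pooled column per group. The sources used here do not say how these were computed. Repeat libraries of a replicate were summed, and 46 sample columns that matched no single sample were not used.

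The 404 domains, the gene lists and the tests were chosen with earlier results of these data known. NDRs were tested with edgeR 4.0.16 in R 4.3.3 (TMM, filterByExpr, quasi-likelihood, group as the term, 49 replicates, two-sided, Benjamini-Hochberg over 6719 NDRs). DESeq2 1.42.0, other scalings, blocks and left-out replicates were alternatives. In simulated counts with 200 changed NDRs, the test was checked to recover known changes. Medians per library used log2 of CPM with a prior of 0.5 counts. Gene names and positions came from the RefSeq table of assembly R64, and strand from the locus tags. Named NDRs were up to 3 inside and 3 at edges per comparison with the smallest adjusted p, and, in wild type, the 3 highest and 3 lowest inside and the 3 lowest at edges. Named domains were the 10 longest and those closest to 6000 bp. No sequence is printed, since no genome was used. Replicate numbers did not pair the samples.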

Additional observations from a re-analysis of the deposited data

How the results depend on the processing

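The number of long domains was 685 over 5000 bp and 131 over 8000 bp, with 874 and 188 edge NDRs, and 594 inside NDRs over 8000 bp. The wild-type inside surplus (log2) was 0.46 from means, 0.41 from 500 bp inward, 0.31 over 5000 bp and 0.47 over 8000 bp. For H4d4-14 the difference from wild type was -0.10, and -0.0521 from means. Boundaries of the separate lists inside long domains numbered 0.305 per kb at least 500 bp inside. Cut to as many as in the joint list, they numbered 0.123 per kb for the lowest scores, where the order turned (0.156 in comparison domains), and, chosen after seeing the data, 0.24 for the highest (0.175 in comparison domains).

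Scaling by listed pairs moved the median of all NDRs by up to -1.72 (H4d4-14). Called members became 0 in diamide, thiolutin, rtt109d and rnh201d. They became 2 in ssu72-2 (0.103%, beside 0.0446% of all NDRs) and 1584 in H4d4-14 (81.6%, beside 81.1%). Of 28 calls at named NDRs, 24 were lost, and the H4d4-14 NDRs reversed to -0.46 and -0.39, which relative to that median is 1.26 and 1.34.

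Replicate numbers did not pair the samples (correlations of deviations -0.488 to 0.544). With a replicate block, called members were 37 in diamide (1.91%, beside 2.75% of all NDRs) and 8 in rtt109d (0.412%, beside 0.298%). They were 10 in H4d4-14 (0.515%, beside 0.268%) and 3 in H4R23A (0.155%, beside 0.0744%). With the run number as a block they were 33 in diamide (1.7%, beside 2.07%), 4 in thiolutin (0.206%, beside 0.714%) and 57 in rtt109d (2.94%, beside 1.83%). They were 170 in med1d (8.76%, beside 6.91%), 176 in H4d4-14 (9.07%, beside 7.41%) and 8 in rnh201d (0.412%, beside 0.134%). DESeq2 called 1 in med1d (0.0515%, beside 0.208%) and 4 in rnh201d (0.206%, beside 0.0744%). Without wild-type replicate 17, 2 were called in med1d (0.103%, beside 0.238%). Without the rDNA NDRs, chosen after seeing the data, 8 remained in rtt109d, 5 higher and 3 lower. Over all NDRs 17 higher and 17 lower calls then remained.

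Leaving out a replicate gave 8 to 26 in diamide, 14 to 144 in thiolutin, 41 to 91 in ssu72-2, 2 to 31 in rtt109d, 0 in H4d4-14, 0 to 1 in H4R23A and 0 to 2 in rnh201d. A lone replicate is then assumed to vary like the other groups. The share over all NDRs is not given for these fits, so the counts show only that calls depend on single replicates. The cause of these changes was not tested. DESeq2, no filter on low counts, upper-quartile scaling, a fit of the group and wild type alone, and leaving out wild-type replicate 17 kept all 28 calls at named NDRs. Each block lost 5 of them, and the 5 lost to the replicate block were all in rtt109d. Of 68 fits without a replicate 16 lost the call.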
